A study of Arabidopsis thaliana with 8 samples.

Results

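The SWEET genes of Arabidopsis thaliana encode sugar transporters, and their transcript signals were followed in seed before and after imbibition in water or in abscisic acid (ABA). They were taken as the probe sets whose single gene symbol in the platform annotation is SWEET followed by a number. This gave 14 of the 13356 genes with a single-gene probe set, each with 1 probe set, and all 14 loci were found in RefSeq. They are SWEET1 to SWEET4, SWEET6 to SWEET11, SWEET13, SWEET14, SWEET16 and SWEET17. Of the 17 listed genes of the family, SWEET15 and SWEET5 are in the annotation under the older symbols SAG29 (AT5G13170) and AtVEX1 (AT5G62850), and they are described beside the 14. SWEET12 was not analysed here.

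SWEET proteins are membrane carriers that let sugars move down their concentration gradient, without coupling to protons. They are among the carriers that plants use where sugar has to leave a cell or cross the membrane of the vacuole. Some members carry mainly hexoses, others mainly sucrose, and a pair at the vacuole carries fructose. In the seed the family is best known for sucrose release from the seed coat and endosperm to the filling embryo. During imbibition the dry, quiescent embryo takes up water and turns to its own reserves, and ABA is the hormone that restrains the step to germination.

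All 8 samples were seed of the Col-0 accession, and total RNA was labelled with biotin and hybridised to one-colour arrays, on which a set of short probes reports 1 transcript. Each of the 4 groups had 2 arrays, with the replicate letters A and B. In 3 groups the seed had been imbibed for 24 h, either in water, in ABA at 3 µM or in ABA at 30 µM, and the remaining group was untreated dry seed. Both 3 µM arrays carry the same treatment label but different numbers in their titles. The labels do not give separate seed batches for the replicates, so each p-value measures the spread between these arrays, which may be technical. Whole seed holds embryo, endosperm and seed coat together, and in such a bulk sample fewer cells of a type and less RNA per cell cannot be told apart.

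The deposited signals share a common trimmed mean on every array, while the median signal was 30.9 to 33.8 on imbibed arrays and 21.0 to 21.4 on dry arrays. Among 27 control probe sets for bacterial transcripts, the highest signal on an array lay between 4.76 and 12.2, and it was highest on replicate B of 3 µM ABA. The labels do not say whether those transcripts were added, and no detection calls were used, so these signals are only a guide to what a weak probe set reads. Of the seed markers listed, 3 of 20 had a named probe set (OLEO3, M17 and LTI30), and all 3 were well above the bacterial controls on all 8 arrays, at 38.7 or more. Other markers were few: 1 of 9 for seed coat (BAN), 1 of 8 for pollen (MGH3), 1 of 10 for root (EXPA7), 2 of 8 for leaf (RCA, LHCB4.2), 3 of 6 for guard cells (MUTE, FAMA, SPCH), and none of 7 for endosperm or of 4 for phloem. The probe set of BAN read at most 9.56, and it exceeded the highest bacterial control on 0 of 8 arrays.

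The family fell into a small set with clear signals and a larger set near the level of the controls. SWEET1, SWEET6 and SWEET11 were above the highest bacterial control on all 8 arrays, as was SWEET15. The other 11 members, with signals between 0.942 and 20.6, exceeded it on 2 to 7 of the 8 arrays each. On a single array, 6 to 12 of the 14 members were above the highest bacterial control, beside 62.6% to 76.4% of all probe sets. The share of all probe sets above it on all 8 arrays was not counted, so the split is not read as a trait of the family. A filter on low signals kept 9 of the 14, and SWEET2, SWEET4, SWEET7, SWEET9 and SWEET14 missed it. The filter asks for a mean log2 value over 3.52, which even the lowest array of SWEET6 (a signal of 11.3) and of SWEET15 (15.1) exceeds. Changes are given on the log2(signal + 3.99) scale from a limma fit to all 8 arrays, which understates the changes of dim probe sets. A change is called at a Benjamini-Hochberg adjusted p under 0.05 over all 15922 probe sets that passed the filter.

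SWEET6 (AT1G66770) was a transcript of the dry seed whose signal was low 24 h after the start of imbibition, with or without ABA. Its signal was 18.1 and 11.3 after water, 19.1 and 29.1 with ABA at 3 µM, and 24.5 and 26.1 with ABA at 30 µM, against 1203 and 1052 in dry seed. No imbibed array came near a dry one, and the replicates within each group lay close together beside that gap. The mean signal was 14.7 ± 4.82 in water and 1127 ± 107 in dry seed (SD, n = 2 each), so the signal of dry seed was 76.8 times that in water. On the log2 scale the change in water against dry seed was -5.94 (SE 0.24, 95% interval -6.48 to -5.40, adjusted p = 3.32e-08). Of the 15922 probe sets tested, 29 had a lower change.

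ABA in the imbibition solution did not keep the SWEET6 signal at the level of dry seed. Against the same pair of dry arrays, the change was -5.35 in 3 µM ABA (95% interval -5.89 to -4.81, adjusted p = 7.07e-08) and -5.27 in 30 µM ABA (95% interval -5.81 to -4.73, adjusted p = 8.9e-08). These comparisons share their dry arrays with the comparison of water with dry seed and are not independent of it. The 2 genes next to SWEET6 in the RefSeq order of TAIR10.1 were both measured. AT1G66760 had a change of -0.52 (adjusted p = 0.339) and AT1G66780 one of -0.34 (adjusted p = 0.363) in water against dry seed, and neither was called.

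SWEET1 (AT1G21460), a glucose carrier of the plasma membrane, had a strong signal in every group and was lower in all imbibed groups than in dry seed as deposited, but not when the arrays were scaled on hybridisation controls. It read 488 and 443 after water, 515 and 524 with ABA at 3 µM, and 583 and 469 with ABA at 30 µM, against 769 and 934 in dry seed. Every imbibed array was below both dry arrays. The mean was 466 ± 32.1 after water, 520 ± 6.09 with ABA at 3 µM and 526 ± 80.6 with ABA at 30 µM, against 852 ± 117 in dry seed (SD, n = 2 each). The signal of dry seed was thus 1.83 times that in water.

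The fall of SWEET1 was called in all 3 comparisons with dry seed under the deposited scaling. The change was -0.86 in water (95% interval -1.25 to -0.47, adjusted p = 0.00142), -0.70 in 3 µM ABA (adjusted p = 0.00509) and -0.69 in 30 µM ABA (adjusted p = 0.00575). In the order of its group means, dry seed stood first and 30 µM ABA, 3 µM ABA and water followed. Both arrays of 3 µM ABA were above both water arrays, those of 30 µM ABA overlapped them, and no difference among the 3 imbibed groups was called. Without replicate B of 30 µM ABA the change in that group was -0.54 (adjusted p = 0.075), so that call rested on this array. The sign in water and in 3 µM ABA depends on how the arrays are scaled, as described below.

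SWEET15, named SAG29 in the annotation, moved the other way and was higher in every imbibed group. It is a sucrose carrier known from senescing leaves and from the seed coat and endosperm of filling seed. Its signal was 312 and 178 after water, 340 and 115 with ABA at 3 µM, and 162 and 193 with ABA at 30 µM, against 15.1 and 16.4 in dry seed. The imbibed groups overlapped, with the widest spread in 3 µM ABA, and the lowest imbibed array was far above both dry arrays. The mean was 245 ± 94.9 in water and 15.7 ± 0.939 in dry seed (SD, n = 2 each), a ratio of 15.6.

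The log2 change of SWEET15 against dry seed was 3.61 in water (SE 0.42, 95% interval 2.68 to 4.53, adjusted p = 2.6e-05), 3.36 in 3 µM ABA (adjusted p = 4.74e-05) and 3.20 in 30 µM ABA (adjusted p = 7.38e-05). In water against dry seed, 499 probe sets (3.13%) had a higher change. Within an array, where the scaling cancels, the log2 ratio of SWEET15 to SWEET6 averaged 4.04 in water and -6.16 in dry seed. These genes of a single family therefore changed by unequal amounts on the same arrays, with a difference of 10.2 on the log2 scale.

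**Figure D1:**
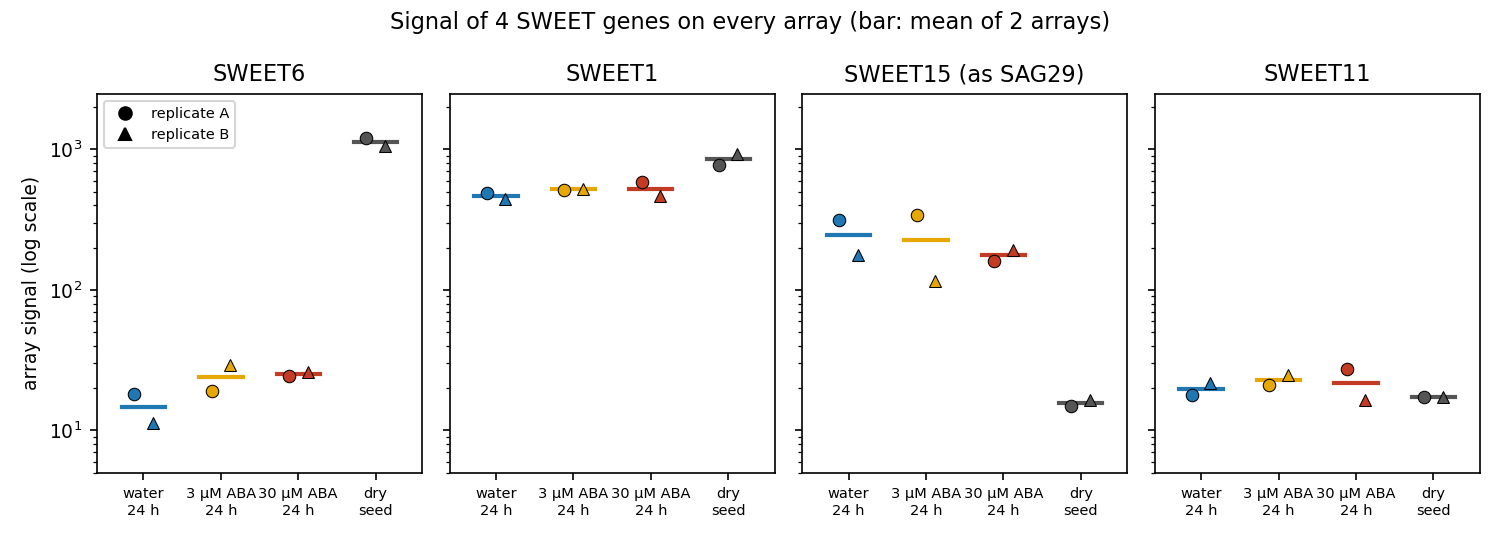
Array signal (log axis) of SWEET6, SWEET1, SWEET15 and SWEET11 on each of the 8 arrays, with water, 3 µM ABA and 30 µM ABA to the left of dry seed, circles for replicate A, triangles for replicate B and bars for the mean of 2 arrays. SWEET6 reads 1203 and 1052 in dry seed and at most 29.1 on imbibed arrays, SWEET15 reads at least 115 on imbibed arrays and at most 16.4 in dry seed, and the imbibed groups of each gene lie close together.

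SWEET11 (AT3G48740), a sucrose carrier of phloem loading that also serves seed filling, showed a low signal that differed little between groups as deposited. It read 17.9 and 21.8 after water, 20.9 and 25.0 with ABA at 3 µM, and 27.3 and 16.4 with ABA at 30 µM, against 17.3 and 17.3 in dry seed. The groups lay close to each other, and the replicates of 30 µM ABA spanned the whole range of the gene. The change in water against dry seed was 0.16 (95% interval -0.46 to 0.78, adjusted p = 0.637), an interval that still allows a moderate change either way. On hybridisation controls it was called higher, at 0.87 (95% interval 0.08 to 1.66, adjusted p = 0.0476) in water and 1.29 (adjusted p = 0.00242) in 3 µM ABA against dry seed. Under that scaling the median change of all probe sets was 0.93 and 1.26, so SWEET11 moved about as the median probe set did.

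Of the 9 members kept by the filter, 2 were called lower and 0 higher in water against dry seed, SWEET6 and SWEET1. In the table as a whole 66% of the probe sets were called, with 37.5% higher and 28.5% lower, so the share of members called was below the background. The median change was -0.32 over the 9 members and 0.15 over all tested. The shares were not compared at matched signal. Apart from SWEET6 and SWEET1, the kept members were dim, with mean log2 values at percentiles 30.4 to 44. With the filter raised to the 50th percentile only SWEET6 and SWEET1 were tested, and both were called. The low share is therefore not read as a trait of the family. Without the filter, all 14 members were tested among 22746 probe sets. The same 2 were then called lower and none higher, while 10712 of all probe sets were called, 4745 of them lower. The median change was -0.38 over the 14 members and 0.01 over all. In 30 µM ABA against dry seed 62.8% of probe sets were called, and in 3 µM ABA against dry seed 64.6%. In each of these comparisons SWEET6 and SWEET1 were the 2 members called, both lower. SWEET1 is not called in any of the 3 when the arrays are scaled on hybridisation controls.

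**Figure D2:**
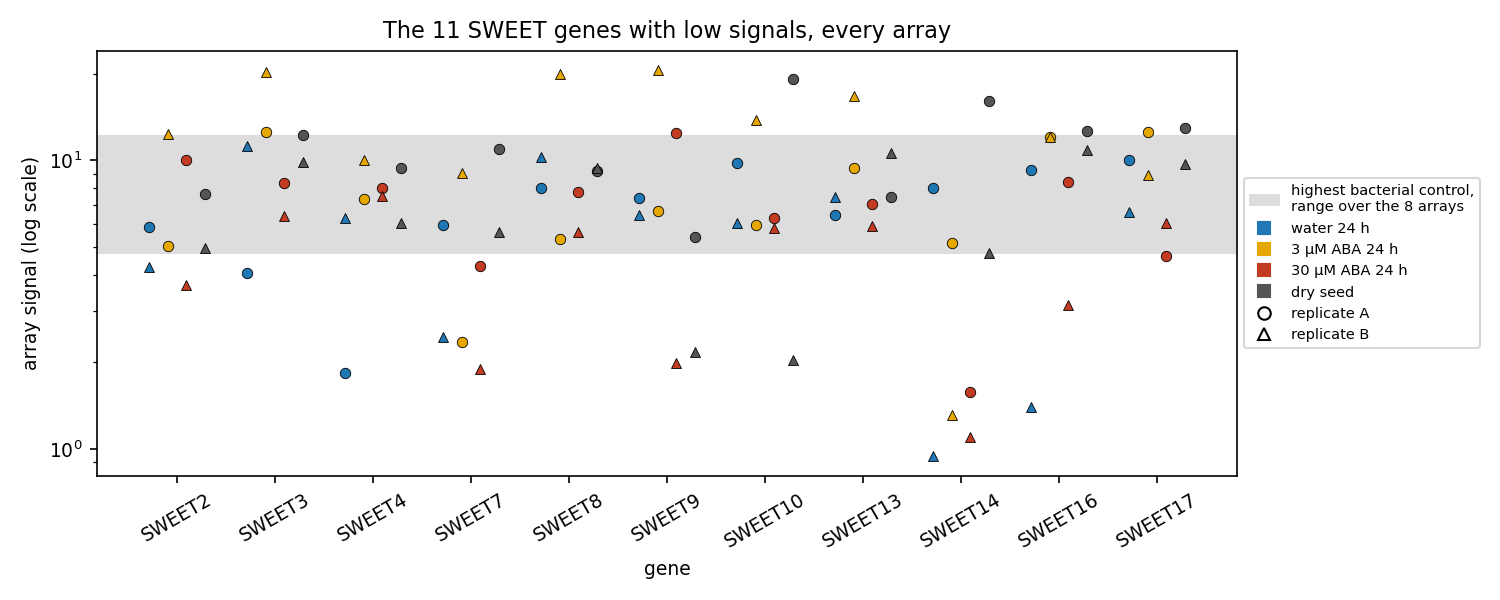
Array signal (log axis) of the 11 SWEET genes with low signals on all 8 arrays, coloured by group from water at the left to dry seed at the right within each gene, with circles for replicate A and triangles for replicate B. The grey band spans the highest bacterial control of each array, 4.76 to 12.2, and most points lie in it or below it. The band pools the 8 arrays, and its top is from replicate B of 3 µM ABA. Against the highest control of the same array, each gene was above it on 2 to 7 of the 8 arrays.

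The vacuolar carriers were among the weak members. SWEET16 (AT3G16690), which carries fructose and other sugars across the vacuole membrane, read 9.27 and 1.39 after water, 12.1 and 12.1 with ABA at 3 µM, and 8.40 and 3.15 with ABA at 30 µM, against 12.6 and 10.9 in dry seed. The water replicates were further apart than the group means. Its change in water against dry seed was -0.90 (95% interval -1.91 to 0.12, adjusted p = 0.108). The value rests on the water replicates, at -1.55 (adjusted p = 0.0173) without replicate A and -0.24 (adjusted p = 0.668) without replicate B. It also moves with the scaling, at -1.12 (adjusted p = 0.0447) after quantile normalization, -1.39 (adjusted p = 0.0183) at one median for all arrays and -0.27 (adjusted p = 0.595) on hybridisation controls.

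SWEET17 (AT4G15920), the fructose carrier of the same membrane, read 10 and 6.62 after water, 12.6 and 8.89 with ABA at 3 µM, and 4.66 and 6.07 with ABA at 30 µM, against 12.9 and 9.70 in dry seed. The arrays of 30 µM ABA were its lowest, below all others. That comparison with dry seed gave -0.71 (95% interval -1.44 to 0.03, adjusted p = 0.0867), and that with water gave -0.39 (adjusted p = 0.877). SWEET2 (AT3G14770), a vacuolar carrier known from roots, missed the filter and lay between 3.69 and 12.3, with the highest value on replicate B of 3 µM ABA.

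Carriers known from sucrose export and from flowers were weak as well. SWEET13 (AT5G50800), which with SWEET14 carries sucrose and also gibberellin, read 6.46 and 7.48 after water, 9.40 and 16.7 with ABA at 3 µM, and 7.04 and 5.91 with ABA at 30 µM, against 7.48 and 10.7 in dry seed. Only replicate B of 3 µM ABA stood out. SWEET14 (AT4G25010) missed the filter and read 8.04 and 0.942 after water, 5.17 and 1.31 with ABA at 3 µM, and 1.57 and 1.096 with ABA at 30 µM, against 16.1 and 4.76 in dry seed. Its replicates differed several-fold within 3 of the 4 groups. When tested without the filter, its change in 30 µM ABA against dry seed was -1.32 (95% interval -2.49 to -0.14, adjusted p = 0.068).

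SWEET10 (AT5G50790), a carrier tied to the floral transition, lies next to SWEET13 in the RefSeq order. Its dry arrays read 19.1 and 2.03, so its dry mean says little, and its imbibed arrays lay between 5.83 and 13.8. SWEET9 (AT2G39060), the sucrose carrier of nectaries, missed the filter at 1.98 to 20.6. Its highest signal was on replicate B of 3 µM ABA, and its dry arrays, at 5.40 and 2.16, lay below both water arrays, at 7.38 and 6.45.

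Among the members known from pollen, SWEET8 (AT5G40260), needed for the pollen wall, read 8.05 and 10.3 after water, 5.35 and 19.9 with ABA at 3 µM, and 7.78 and 5.65 with ABA at 30 µM, against 9.21 and 9.38 in dry seed. Its highest and lowest arrays were the replicates of one group, 3 µM ABA, and water against dry seed gave a change of -0.02 (95% interval -0.97 to 0.93, adjusted p = 0.973). SWEET5, the carrier of the vegetative cell of pollen, read 5.58 and 1.099 after water, 4.60 and 0.937 with ABA at 3 µM, and 7.52 and 2.98 with ABA at 30 µM, against 21.4 and 8.38 in dry seed. Both dry arrays were above all imbibed arrays. SWEET5 missed the filter and was above the highest bacterial control on 3 of 8 arrays, so the size of its changes is uncertain. When tested without it the change against dry seed was -1.35 in water (adjusted p = 0.0486), -1.45 in 3 µM ABA (adjusted p = 0.0369) and -0.99 in 30 µM ABA (adjusted p = 0.143). The one pollen marker measured, MGH3, also missed the filter and was above the highest bacterial control on 3 of 8 arrays. It read 4.204 and 1.33 in water, against 16.8 and 17.7 in dry seed. With ABA it read 1.28 and 0.566 at 3 µM, and 7.47 and 5.6 at 30 µM. The part of MGH3 in the values of SWEET5 was not tested.

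For the remaining members little can be said beyond their levels. SWEET4 (AT3G28007), a glucose and fructose carrier, missed the filter and lay between 1.84 and 10.04. Its ABA arrays, at 7.38 to 10.04, were all above its water arrays, at 1.84 and 6.31. When tested without the filter, its change against water was 0.71 in 3 µM ABA and 0.60 in 30 µM ABA, neither called. SWEET7 (AT4G10850) also missed the filter and lay between 1.90 and 10.98, with its highest signal on dry replicate A. SWEET3 (AT5G53190) read 4.08 and 11.3 after water, 12.6 and 20.3 with ABA at 3 µM, and 8.36 and 6.43 with ABA at 30 µM, against 12.3 and 9.86 in dry seed. Its water arrays lay below both arrays of 3 µM ABA and enclosed both of 30 µM ABA, and its change in water against dry seed was -0.44 (95% interval -1.28 to 0.41, adjusted p = 0.335).

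ABA gave no called change of a SWEET gene at either dose. In limma's fit of 30 µM ABA against water, 1 of 9 members, SWEET6, had an unadjusted p under 0.05, as did 1350 of all 15922 probe sets. In that comparison 0 of 9 members and 0.452% of all probe sets were called. The 72 probe sets behind that share numbered 0 without either water array or without replicate B of 30 µM ABA, and 5 without its replicate A. In 3 µM ABA against water 0 members and 0% of all probe sets were called. There 2 of the 9 members, SWEET6 and SWEET3, had an unadjusted p under 0.05, as did 635 of all 15922 probe sets. Between 30 µM and 3 µM ABA, 0 members and 0% of probe sets were called, with 0 members and 513 of all probe sets at an unadjusted p under 0.05. With 2 arrays a group, the smallest two-sided p that an exact permutation can give is 0.333, and no single gene was tested in that way.

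Among the kept members SWEET6 came closest to an ABA difference, with both arrays of each ABA group above both water arrays. SWEET4, which missed the filter, was split in the same way. How many of all probe sets were split so was not counted. The mean of SWEET6 was 24.1 ± 7.10 in 3 µM ABA and 25.3 ± 1.12 in 30 µM ABA, against 14.7 ± 4.82 in water (SD, n = 2 each). The change against water was 0.68 in 30 µM ABA (95% interval 0.13 to 1.22, unadjusted p = 0.0194, adjusted p = 0.443 in limma) and 0.59 in 3 µM ABA (95% interval 0.05 to 1.13, unadjusted p = 0.0355, adjusted p = 0.999 in limma). The ABA comparisons share the water arrays. In 3 µM ABA the lower array, at 19.1, was barely above the higher water array, at 18.1, and the change without replicate B of 3 µM ABA was 0.32. The 2 doses differed by 0.08 (95% interval -0.46 to 0.63).

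The seed markers were also at higher mean signals in 30 µM ABA than in water. OLEO3, an oil body protein, averaged 394 ± 97.7 in 30 µM ABA and 203 ± 5.44 in water, with an adjusted p of 0.145 in limma. M17 averaged 603 ± 45.4 and LTI30 averaged 234 ± 121 in 30 µM ABA, against 263 ± 149 and 71.2 ± 45.9 in water (SD, n = 2 each). None of the 3 was called, and their part in the SWEET6 values was not tested. All 3 were called lower in each imbibed group against dry seed, where SWEET6 was lower too.

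The intervals show what the other members allow. For SWEET1 the change in 30 µM ABA against water was 0.17 (95% interval -0.22 to 0.56), the tightest limit of the 4 genes with clear signals. For SWEET15 it was -0.41 (95% interval -1.33 to 0.52) and for SWEET11 0.09 (95% interval -0.53 to 0.71), which leaves room for a decrease of SWEET15 and for smaller changes of SWEET11 in either direction.

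In 3 µM ABA the changes of all 9 kept members against water were above 0, and many of the high signals were on 1 array. The median change was 0.262 over the 9 members and 0.025 over all probe sets tested. SWEET16 had a change of 0.93 (95% interval -0.09 to 1.94) and SWEET3 one of 0.86 (95% interval 0.01 to 1.70), neither called. Of the 14 members, 10 had their highest imbibed signal on replicate B of 3 µM ABA, the array that also had the highest bacterial control signals. The median bacterial control there was 2.75, against 0.855 to 1.72 on the other arrays. How many of all probe sets were highest on this array was not counted, so the 10 are not read as a trait of the family. The part of this array's low-signal level in those changes was not tested.

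**Figure D3:**
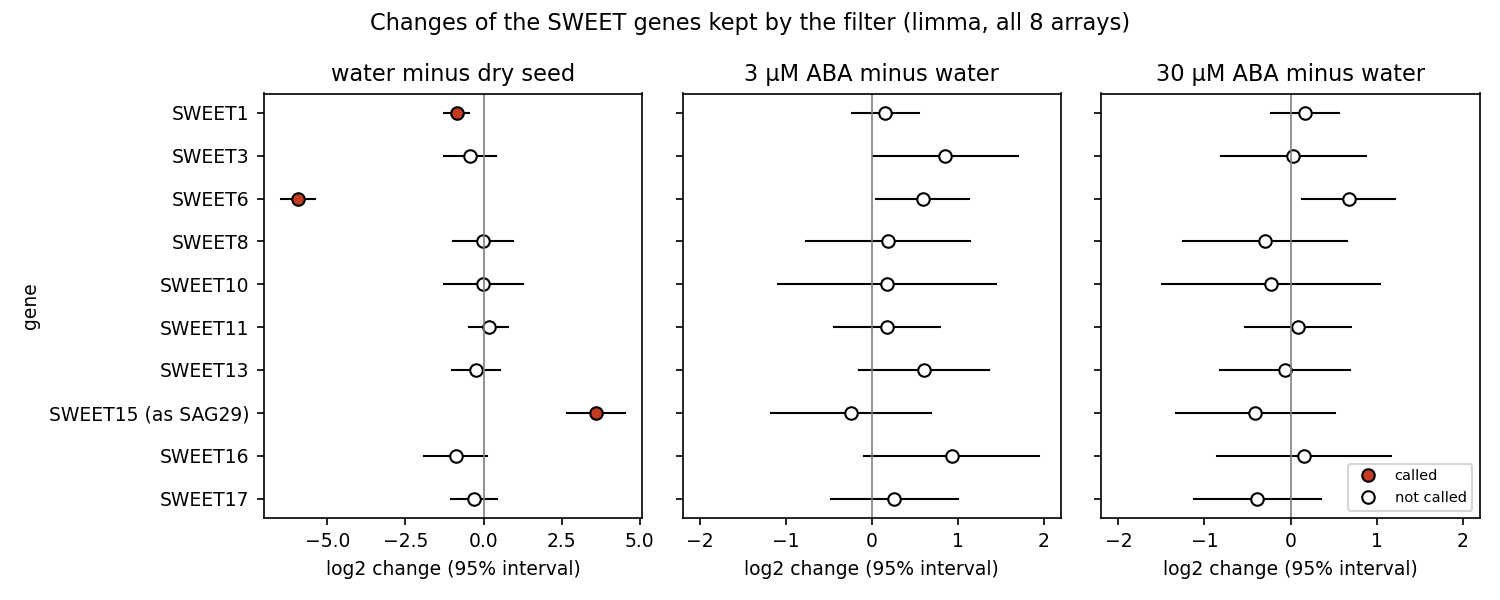
Log2 change with its 95% interval for the 9 SWEET genes kept by the filter and for SWEET15, in water minus dry seed, 3 µM ABA minus water and 30 µM ABA minus water; filled points are called. In water against dry seed SWEET6 (-5.94), SWEET1 (-0.86, but 0.04 on hybridisation controls) and SWEET15 (3.61) are called, and no gene is called in either ABA comparison.

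Since the deposited signals share a trimmed mean, changes against dry seed were recomputed under 3 other scalings. The arrays were quantile-normalized, set to one median, or scaled on 9 hybridisation controls. In that order, the change of SWEET6 in water against dry seed was -5.78, -6.44 and -5.08, and that of SWEET15 was 3.24, 3.11 and 4.34, all called. SWEET1 had changes of -0.77 and -1.36 under quantile normalization and a common median, both called. Its change was 0.04 under the scaling on hybridisation controls (95% interval -0.68 to 0.76, adjusted p = 0.934). The geometric mean signal of those controls was 128 to 247 on imbibed arrays, and 339 and 363 on dry arrays.

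The scalings moved the whole table with SWEET1. The median change of all probe sets was 0.15 as deposited, -0.03 after quantile normalization, -0.35 at one median for all arrays and 0.93 on the hybridisation controls. Relative to these medians, the change of SWEET1 in water against dry seed was -1.01, -0.74, -1.01 and -0.89. Setting one median shifts each array as a whole, so for any gene this relative value equals the deposited one by construction. Scaling on the hybridisation controls also applies a single factor to each array, so only quantile normalization could differ much. Within arrays, the log2 ratio of SWEET6 to SWEET1 lay between -5.30 and -4.17 on the imbibed arrays, against 0.65 and 0.17 on the dry arrays, so SWEET6 fell relative to SWEET1 whatever factor each array is scaled by. SWEET11 took both signs in water against dry seed, at -0.29 after quantile normalization, -0.34 at one median and 0.87 on the hybridisation controls, the last called; relative to the medians of all probe sets its changes lay between -0.26 and 0.01.

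**Figure D4:**
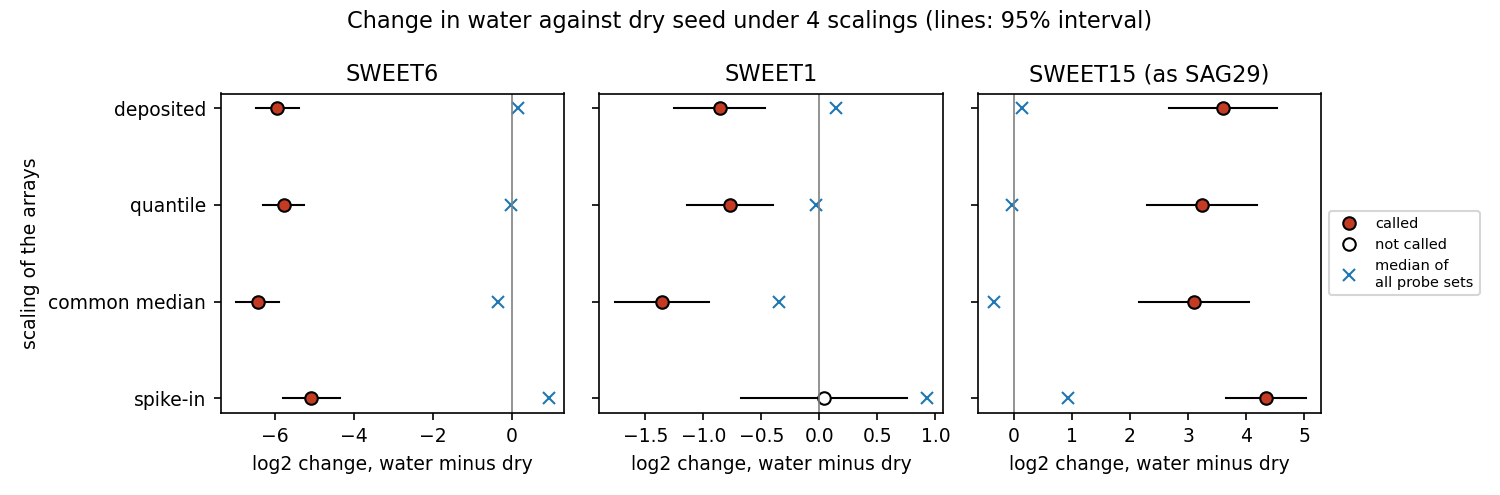
Log2 change in water minus dry seed of SWEET6, SWEET1 and SWEET15 under 4 scalings of the arrays, with 95% intervals (lines), filled points for called changes and crosses for the median change of all probe sets under the same scaling. SWEET6 (-6.44 to -5.08) and SWEET15 (3.11 to 4.34) are called under each, and SWEET1 is at 0.04 under the scaling on hybridisation controls, below the cross at 0.93.

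Other genes of sugar movement were thinly covered by the named probe sets. None of 9 listed sucrose carriers and none of 14 listed hexose carriers had one. Of 20 other monosaccharide and polyol carriers 5 had one, 4 were kept, 1 was called higher and 0 lower in water against dry seed. The one was TMT1, an importer of glucose and other sugars into the vacuole, at 189 and 148 after water, 231 and 149 with ABA at 3 µM, and 186 and 177 with ABA at 30 µM, against 30.5 and 44.7 in dry seed. All imbibed arrays were above both dry arrays, and the change in water was 2.06 (95% interval 1.52 to 2.61, adjusted p = 3.19e-05). Its paralogue TMT2 averaged 407 ± 33.0 in water and 402 ± 5.85 in dry seed (SD, n = 2 each) and had a change of 0.02 (adjusted p = 0.942) as deposited. The call on TMT2 depends on the scaling, with -0.48 (adjusted p = 0.044) at one median for all arrays and 0.91 (adjusted p = 0.0194) on hybridisation controls. The median change of all probe sets under these scalings was -0.35 and 0.93. TMT3 and SFP2 were not called, SFP1 missed the filter, and so did SPS4F, the one of 8 genes of sucrose synthesis. Of 16 genes listed under sucrose breakdown, the one with a named probe set, CWINV6, was not called (-0.53, adjusted p = 0.189). Its name alone put it in that list.

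The genes with patterns most like those of the clear members were found among 8888 other single-gene probe sets. The measure was the Euclidean distance between centred log2 values over the 8 arrays, which share their scaling, and it is given as a description. For SWEET6 the nearest were AT5G17540 (distance 0.758, r = 0.996), AT1G03890 (0.774, r = 0.994) and AT2G32150 (0.920, r = 0.994). AT1G03890, for example, averaged 28.7 in water, 41.3 in 3 µM ABA and 69.1 in 30 µM ABA, against 1987 in dry seed. For SWEET1 they were AT3G09180 (0.209, r = 0.980), AT5G25210 (0.212, r = 0.977) and AT1G78930 (0.243, r = 0.974).

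For SWEET15 the nearest was AT3G25290, with a distance of 0.439 and r = 0.995. It read 362 and 189 after water, 363 and 131 with ABA at 3 µM, and 236 and 204 with ABA at 30 µM, against 18.6 and 16.2 in dry seed. The distance is taken over single arrays, so likeness between replicates is part of how it was picked. AT2G16660 (0.712) and AT5G02180 (0.785) came next. For SWEET11 they were AT1G74630 (0.195), AT3G53470 (0.207) and TBL26 (0.269). The kept weak members matched other probe sets at distances of 0.345 to 0.641. For SWEET3 these were AT1G33770, AT5G26670 and AT3G11110, for SWEET8 AT1G66810, AT3G22070 and AT1G10140, and for SWEET10 AT1G73760, AT1G63200 and AT5G28230. For SWEET13 they were PUCHI (0.348), a regulator of flower and root development, AT1G25420 and AT2G20380. For SWEET16 they were DFR (0.461), an enzyme of anthocyanin synthesis, AT5G13350 and AT1G67470. For SWEET17 they were AT1G66780 (0.345), which lies next to SWEET6 in the genome, AT3G25570 and AT1G73130.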

How the data were processed

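The deposited values are MAS5 signal intensities, per the submitters' processing notes, which give no version; they are linear, with 1 value for each probe set and array. Scanner files and detection calls were not used here. Of 22810 probe sets, 64 controls were set aside. A pseudocount of 3.99, the 20th percentile of the signals, was added before log2. Probe sets whose mean log2 value exceeded the 30th percentile were kept (15922). One limma 3.58.1 fit (R 4.3.3) covered the 4 groups and 8 arrays, with 4 residual degrees of freedom, an intensity trend and two-sided tests with Benjamini-Hochberg adjustment over the kept probe sets. Precision is limited by the number of arrays. The platform annotation named 1 gene for 13513 probe sets and several for 503. RefSeq (TAIR10.1) served for names and neighbours alone, since the build behind the array is not given in the sources used here. No sequence is printed. The members, the gene lists and the alternatives were chosen with earlier results of these data known. The rule for named genes took every member, at most 3 called genes of a related list, and the 3 nearest patterns of each kept member. The uncalled measured genes of those lists, SWEET5 and SWEET15, markers and neighbours are named outside that rule. Alternatives changed the pseudocount, filter, scaling, trend, array weights, the samples fitted and the replicate block.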

Additional observations from a re-analysis of the deposited data

How the results depend on the processing

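Over 19 alternatives, SWEET6 and SWEET15 remained called in all 3 comparisons with dry seed, SWEET6 at -6.44 to -4.64 and SWEET15 at 2.49 to 4.34 in water. The count of members called moved with the scaling. With a common median it was 5 in water against dry seed and 6 in 30 µM ABA against dry seed. Of all 15922 probe sets, 10508 were called in water against dry seed as deposited. No alternative moved that number by over 1.5 times. At a common median, the median change of all probe sets was -0.35 in water and -0.39 in 30 µM ABA against dry seed. On the hybridisation controls it was 0.93 and 0.76. The member counts under these scalings are therefore not read as a trait of the family. With the hybridisation controls the member count was 2 in water (SWEET6 lower, SWEET11 higher) and 1 in 30 µM ABA (SWEET6) against dry seed. In 3 µM ABA against dry seed it was 5, with SWEET6 lower and SWEET3, SWEET8, SWEET11 and SWEET13 higher. The changes of those 4 in that comparison were at most 1.29 under any alternative. The median change of all probe sets there was 1.26 on the hybridisation controls, so the 4 calls are not read as a rise beyond that of the whole table. The change of SWEET1 under that scaling was 0.038 after water and 0.464 with ABA at 3 µM (adjusted p = 0.243), both of the opposite sign, and -0.002 with ABA at 30 µM. Leaving out each replicate in turn gave 2 to 3 members in water, 1 to 3 in 30 µM ABA and 2 in 3 µM ABA against dry seed, and 0 in the other comparisons. The 1 was without replicate B of 30 µM ABA. The shared letters A and B do not establish pairs: the A-minus-B differences of any 2 groups correlated at -0.08 to 0.31. With the replicate letter as a block, the member counts were 2, 2 and 2 against dry seed and 0 otherwise, while all probe sets called in 30 µM ABA against water numbered 135, against 72 without it. That count of 72 was 0 without either water array or without replicate B of 30 µM ABA, 5 without its replicate A, 122 without either 3 µM replicate, and 2 to 202 under the other alternatives that moved it by over 1.5 times. In all, 1054 single changes were recomputed: 1033 kept their direction or stayed uncalled, 17 became called, 2 lost the call and 2 turned. Where signals lie near the bacterial controls, the size of a change is uncertain.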
